A study of Gallus gallus with 12 samples.

Results

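The 9 genes described here encode parts of the Hedgehog pathway: the ligands SHH and IHH, the receptor PTCH1, the signal transducer SMO, the transcription factors GLI2 and GLI3, the ligand-binding inhibitor HHIP and the co-receptors BOC and GAS1. They were chosen by gene symbol from the table of 17485 protein coding genes, and all 9 symbols were found once. RNA was sequenced from 4 tissues of the Hy-Line Brown chicken embryo, with 3 libraries each, and the sexes were not separated. E4.5-Post, the control tissue, was the posterior part of the urogenital system at embryonic day 4.5 (stage HH25) with its mesonephric kidney and mesentery. E4.5-Ant was the anterior part of the same 15 embryos, which holds the forming Müllerian duct together with mesonephros. The E5.5 duct (stage HH28) and the E6.5 duct (stage HH30) were dissected Müllerian ducts. Each library was a pool of 5 embryos at E4.5, of 3 at E5.5 and of 4 at E6.5, so that the spread between libraries is a spread between pools. The labels name no treatment and no genetic change. The tissue and the age of the ducts cannot be told apart from each other against the control, which was taken at E4.5 only.

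In Hedgehog signalling, a secreted ligand binds PTCH1 and so relieves its inhibition of SMO, which acts in the primary cilium. SMO then shifts the GLI factors from repressor forms, made mainly from GLI3, towards activators, of which GLI2 is a main one. GLI1, PTCH1 and HHIP are themselves switched on by the pathway in many vertebrate tissues, while GAS1, BOC and CDON are lowered by it in several. In the developing urogenital tract of the mouse, ligand from epithelium acts on the mesenchyme around it.

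Levels are in CPM, a library's reads on a gene for each 1000000 that fell on any gene, scaled by the trimmed mean of M values (TMM CPM). A gene was called differentially expressed at an adjusted p of at most 0.05 and a fold change of at least 1.5 in either direction (0.58 on the log2 scale, the fold limit), from edgeR's quasi-likelihood test over 16603 tested genes. The libraries held between 24235353 and 31373783 counts on genes. Library 2 of E4.5-Ant had 42.1% of its counts on rRNA genes, against 0.199% to 1.95% in the others. It was left out of the tests, so that n = 2 for E4.5-Ant and n = 3 for the other tissues. All 9 genes passed the filter on low counts. IHH passed it through the ducts: 6 duct libraries reached the limit of 0.353 CPM, but only 1 of the 3 E4.5-Post and 0 of the 2 E4.5-Ant libraries. Reads on a gene were counted over its whole length, introns included, and in bulk tissue fewer cells of a type and less RNA per cell cannot be told apart.

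Against E4.5-Post, 2 of the 9 genes were called in E4.5-Ant and 5 in each duct, and every call was higher. They were GLI2 and BOC in E4.5-Ant, and SHH, IHH, GLI2, HHIP and BOC in both ducts. IHH is among the 5 although it passed the filter on low counts only through the ducts, where it was high. The median log2 fold change of the 9 genes was 0.16 in E4.5-Ant, 0.97 in the E5.5 duct and 1.11 in the E6.5 duct, while that of all tested genes was -0.02, 0.01 and 0.01. Of all tested genes, 10.8% were called in E4.5-Ant (7.70% higher and 3.05% lower). In the E5.5 duct 20.6% were called (14.3% higher and 6.26% lower), and in the E6.5 duct 25.3% (16.5% higher and 8.78% lower). These comparisons share their control libraries, so their calls are not independent of each other.

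Between successive tissues fewer of the 9 genes were called. The E5.5 duct had SHH and HHIP higher than E4.5-Ant, where 13.0% of all tested genes were called (7.80% higher and 5.22% lower). The E6.5 duct had IHH alone of the 9 called higher than the E5.5 duct, where 7.56% of all genes were called (4.11% higher and 3.45% lower). Against E4.5-Ant, the E6.5 duct had SHH, IHH and HHIP higher, with 19.7% of all genes called (11.5% higher and 8.26% lower). The median log2 fold change of the 9 genes in these comparisons was 0.24, 0.27 and 0.42.

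**Figure D1:**
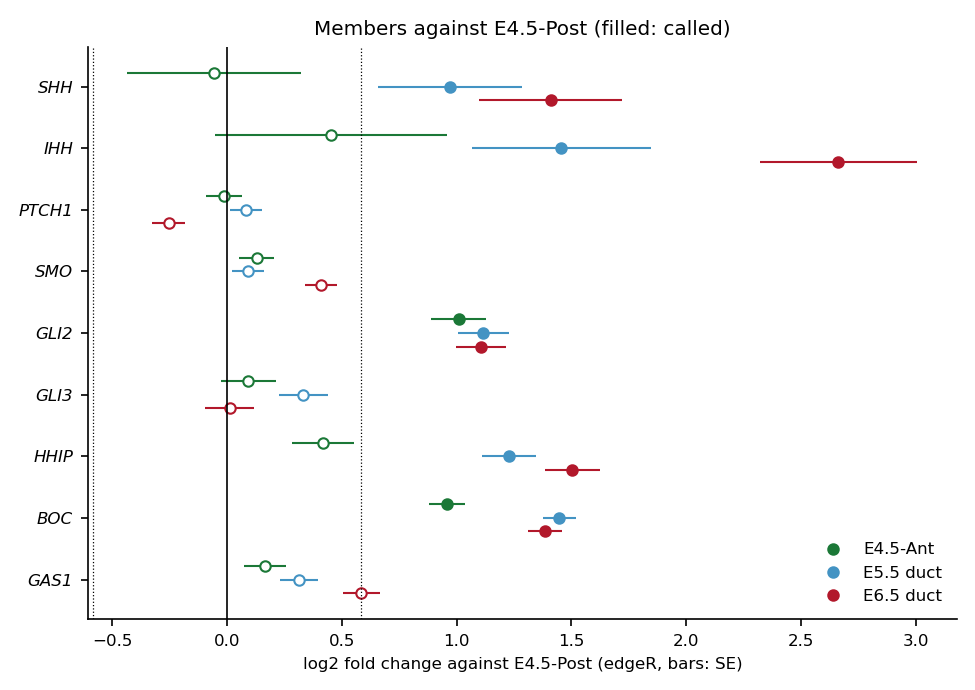
Log2 fold change of the 9 Hedgehog pathway genes against E4.5-Post, on the horizontal axis, for E4.5-Ant (green), the E5.5 duct (blue) and the E6.5 duct (red). Bars are standard errors derived from edgeR's F statistic, filled points are called genes, and dotted lines stand at the fold limit of 1.5 in either direction. GLI2 and BOC lie to the right of the line in all 3 tissues, SHH, IHH and HHIP only in the ducts, and PTCH1, SMO and GLI3 lie between the lines throughout.

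Of the ligands, SHH (gene3401, GRCg6a chr2:8166226-8175850, minus strand) is the Sonic hedgehog ligand, made by many epithelia and by the notochord. Its level was 4.22, 3.75 and 4.14 TMM CPM in the E4.5-Post libraries and 2.35 and 5.44 in those of E4.5-Ant. It was 5.49, 5.49 and 12.6 TMM CPM in the E5.5 ducts and 12.4, 9.41 and 9.78 in the E6.5 ducts. Both ducts therefore lay above every E4.5 library, but library 3 of the E5.5 duct stood at the level of the E6.5 ducts and the other E5.5 libraries lay just above E4.5. The log2 fold change of SHH against E4.5-Post was -0.06 ± 0.38 (SE; adjusted p = 0.929) in E4.5-Ant, 0.97 ± 0.31 (adjusted p = 0.0178) in the E5.5 duct and 1.41 ± 0.31 (adjusted p = 0.00138) in the E6.5 duct.

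The E5.5 calls of SHH rested on single libraries. Without library 3 of the E5.5 duct, its log2 fold change against E4.5-Post was 0.46 (adjusted p = 0.141), and without library 2 of E4.5-Post it was 0.92 (adjusted p = 0.0565). Against E4.5-Ant the E5.5 value was 1.03 ± 0.36 (adjusted p = 0.0453) and lost its call in 7 of the 11 fits that each left out 1 library. In 5 of these the library belonged to another tissue and the value stayed at 1.03, with adjusted p between 0.0539 and 0.0580. It was 0.53 without library 1 of E4.5-Ant (adjusted p = 0.412) and 0.51 without library 3 of the E5.5 duct (adjusted p = 0.197), but 1.73 without library 3 of E4.5-Ant. The E6.5 duct exceeded E4.5-Ant by 1.47 ± 0.36 (adjusted p = 0.00447), by 0.97 (adjusted p = 0.0812) without library 1 of E4.5-Ant and by 2.17 without library 3 of that tissue. The change from E5.5 to E6.5 was 0.44 ± 0.29 (adjusted p = 0.287), and 0.95 (adjusted p = 0.0105) without library 3 of the E5.5 duct.

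Since SHH also marks notochord, floor plate and endoderm, markers of these tissues are given beside it. The 5 measured notochord and floor plate markers other than SHH summed to between 8.01 and 9.93 TMM CPM in E4.5-Post, 11.6 and 16.5 in E4.5-Ant, 9.74 and 11.96 in the E5.5 ducts and 14.1 and 15.5 in the E6.5 ducts, and none was at 0 throughout a tissue. T, a notochord transcription factor, was at 3.20 and 7.16 TMM CPM in the E4.5-Ant libraries, the higher value in the library with more SHH. T was called lower in both ducts than in E4.5-Ant. CHRD, a notochord antagonist of BMPs, was at 2.47 to 3.26 TMM CPM in E4.5-Post and at 5.53 and 6.36 in E4.5-Ant. In the ducts it was at 5.198 to 5.73 TMM CPM at E5.5 and 8.37 to 9.16 at E6.5. Against E4.5-Post, CHRD was called higher in both ducts, as SHH was, but also in E4.5-Ant, where SHH was not called. In library 3 of the E5.5 duct the markers did not all move together. T was highest there, at 3.22 TMM CPM against 2.84 and 2.58, and so was CHRD, at 5.73 against 5.43 and 5.198. NOTO (0.134 against 0.211 and 0.131) and FOXJ1 (1.74 against 2.02 and 1.28) were not highest in that library. FOXA2, which marks floor plate and endoderm, was highest there, at 1.14 TMM CPM against 0.332 and 0.556. FOXA1 was also highest there, at 0.402 against 0.0302 and 0.0327, and so was SOX17, at 0.804 against 0.784 and 0.523. HHEX of the endoderm list was lowest there, at 12.3 against 14.5 and 12.8, and CDX1 was at 0 against 0.121 and 0. The 7 measured endoderm markers summed to between 21.7 and 24.0 TMM CPM in E4.5-Post, 23.1 and 26.8 in E4.5-Ant, 13.9 and 15.7 in the E5.5 ducts and 14.4 and 14.7 in the E6.5 ducts. HHEX alone made up most of each sum, at 19.2 to 20.3 TMM CPM in E4.5-Post, 25.4 and 21.0 in E4.5-Ant and 11.6 to 12.2 in the E6.5 ducts. The sums therefore mainly follow this gene and say little of the other endoderm markers. Only 3 markers of this list were tested. SOX17 was called lower than its E4.5-Post level at E5.5 and again at E6.5. HHEX was called lower than E4.5-Post at E6.5, and lower than E4.5-Ant at either duct stage. FOXA2 went the other way and was called higher in the E6.5 duct than in E4.5-Ant and the E5.5 duct. FOXA2 was not called against E4.5-Post. SOX2 was at 0 in every library of the test, and CDX2 in those of E4.5-Ant and the E5.5 duct. The part of such cells in the SHH values was not tested.

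IHH (gene11473, chr7:22301660-22309634, plus strand), the Indian hedgehog ligand best known from growing cartilage, was the member with the lowest counts. It had 4, 10 and 3 counts in the E4.5-Post libraries and 8 and 7 in those of E4.5-Ant, against 17, 13 and 20 in the E5.5 ducts and 36, 37 and 33 in the E6.5 ducts. This corresponds to 0.142, 0.341 and 0.100 TMM CPM in E4.5-Post and 0.262 and 0.268 in E4.5-Ant. In the ducts it corresponds to 0.513, 0.425 and 0.670 TMM CPM at E5.5 and 1.15, 1.30 and 1.25 at E6.5. The 3 levels, E4.5, E5.5 and E6.5, did not overlap, although the E4.5 libraries held no more than 10 counts each.

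The log2 fold change of IHH against E4.5-Post was 0.45 ± 0.50 (adjusted p = 0.541) in E4.5-Ant, 1.46 ± 0.39 (adjusted p = 0.00585) in the E5.5 duct and 2.66 ± 0.34 (adjusted p = 1.3e-05) in the E6.5 duct. The step from E5.5 to E6.5 was 1.21 ± 0.28 (adjusted p = 0.00621). IHH was the only one of the 9 genes called between the ducts. It passed the filter on low counts only through the duct libraries, where it was high. Its calls against the E4.5 tissues are therefore not independent of that filter. Without library 2 of E4.5-Post, which held 10 counts, the values against E4.5-Post were 2.13 at E5.5 and 3.33 at E6.5. The lowest values over the 11 fits that left out 1 library were 1.14 at E5.5 and 2.35 at E6.5, and both comparisons were called in all 11. IHH was no longer tested where at least 10 counts were required in every library. Of the 8 sclerotome and cartilage markers, 5 were called lower in the E6.5 duct than in E4.5-Post and COL2A1 was called higher. Of all tested genes, 8.78% were called lower and 16.5% higher there. The sum of the 8 markers lay between 209 and 255 TMM CPM in E4.5-Post, 335 and 449 in E4.5-Ant, 265 and 365 in the E5.5 ducts and 377 and 384 in the E6.5 ducts. COL2A1 alone made up most of it, at 179 to 209 TMM CPM in E4.5-Post, 297 and 369 in E4.5-Ant, 227 to 312 in the E5.5 ducts and 348 to 363 in the E6.5 ducts. Among the 8 markers, the cartilage genes ACAN and MATN1 were at 0.303 to 0.320 and 1.15 to 1.78 TMM CPM in the E6.5 ducts, against 0.701 to 4.88 and 4.70 to 6.06 in E4.5-Post, while COL9A1 was at 11.6 to 17.5 against 11.6 to 14.6. The part of cartilage in the IHH values was not tested.

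Neither PTCH1 nor SMO was called in any of the 6 comparisons. PTCH1 (gene23177, chrZ:41780685-41851489, minus strand), the receptor that holds SMO inactive, was at 128, 117 and 125 TMM CPM in E4.5-Post and 117 and 126 in E4.5-Ant. It was at 121, 141 and 127 TMM CPM in the E5.5 ducts and 98.4, 94.9 and 112 in the E6.5 ducts. The 3 E6.5 libraries were the lowest of all, with a log2 fold change of -0.25 ± 0.07 (adjusted p = 0.00676) against E4.5-Post and -0.34 ± 0.07 (adjusted p = 0.00326) against the E5.5 duct. Both values passed the adjusted p and not the fold limit.

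SMO (gene77, chr1:1339489-1348014, plus strand), the membrane protein that passes the signal on, moved the other way between the ducts. It was at 95.2, 99.8 and 102 TMM CPM in E4.5-Post, 111 and 103 in E4.5-Ant, 106, 111 and 95.2 in the E5.5 ducts and 135, 136 and 117 in the E6.5 ducts. All 3 E6.5 libraries lay above all others. The log2 fold change at E6.5 was 0.41 ± 0.07 (adjusted p = 0.000144) against E4.5-Post and 0.32 ± 0.07 (adjusted p = 0.00374) against the E5.5 duct, both under the fold limit.

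PTCH1 and GAS1 lie on chromosome Z, of which male birds carry a pair and females a single copy, and the pools were of unknown sex. The summed TMM CPM of 73 genes on chromosome W, which females alone carry, was 1134 to 1648 in E4.5-Post, 1375 to 1819 in E4.5-Ant, 1376 to 1803 in the E5.5 ducts and 947 to 1679 in the E6.5 ducts. The ranges of the 4 tissues overlapped, and the part of sex in the PTCH1 and GAS1 values was not tested.

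**Figure D2:**
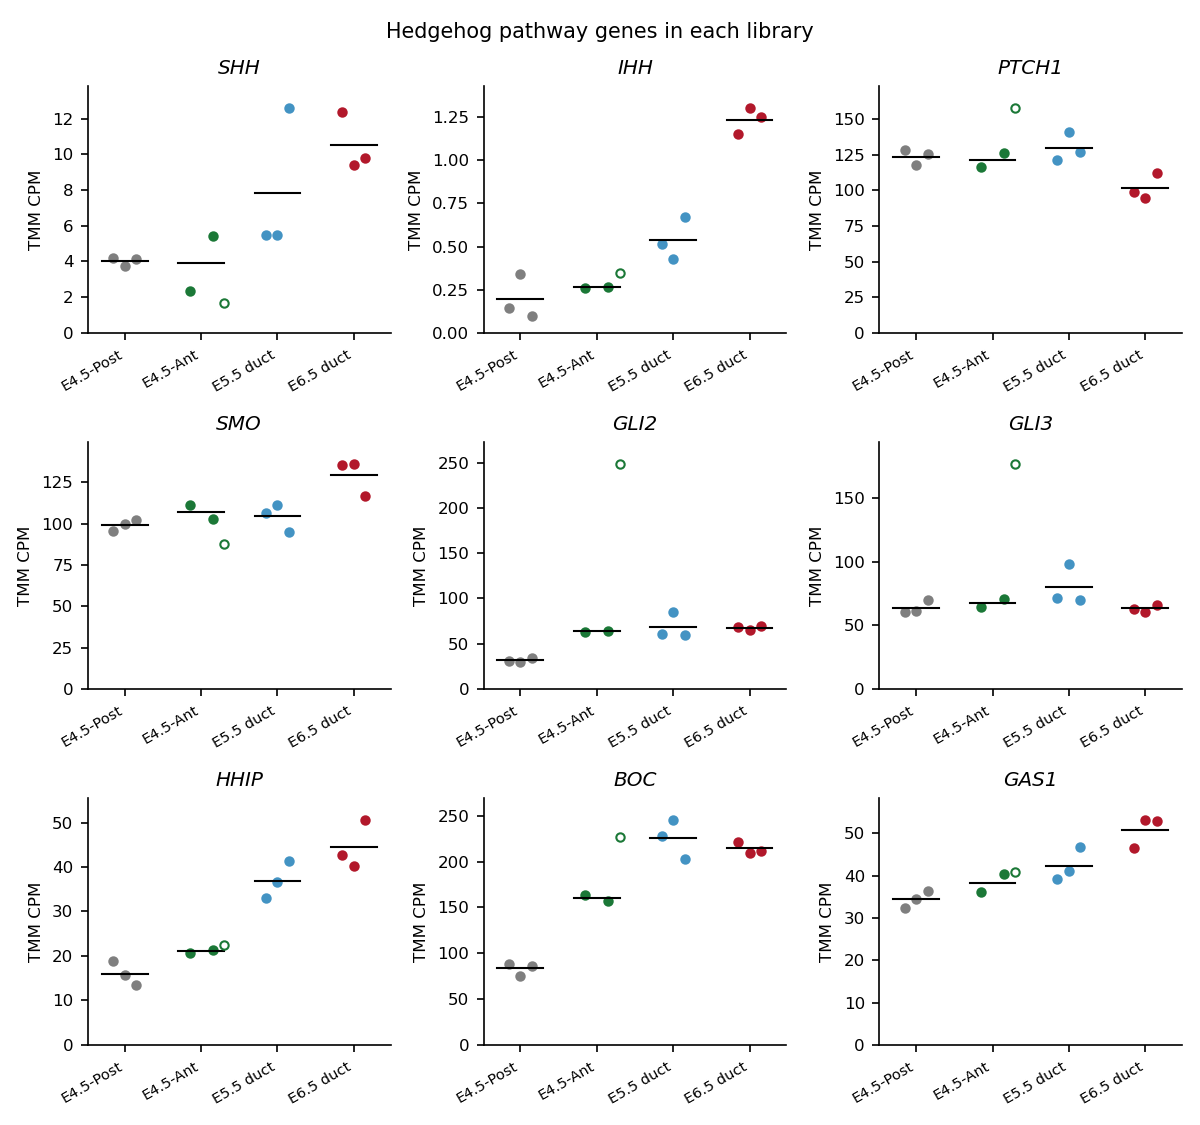
TMM CPM of each of the 9 genes in every library, by tissue, with a linear axis from 0 in each panel. Filled points are the libraries of the test, black lines their mean, and the open green point is the E4.5-Ant library that was left out. IHH and HHIP step up over the ducts, and GLI2 is low in E4.5-Post alone. By its filled points, BOC is lowest in E4.5-Post, and E4.5-Ant lies between it and the ducts. The open points of GLI2 at 248 and GLI3 at 177 stand far above all others.

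Of the transcription factors, GLI2 (gene11553, chr7:25774748-25958144, plus strand), the main activator, was at 31.0, 30.01 and 34.5 TMM CPM in E4.5-Post and at 62.8 and 64.2 in E4.5-Ant. In the ducts it was at 60.7, 85.0 and 59.5 TMM CPM at E5.5 and 68.3, 64.8 and 69.2 at E6.5. No library of the other tissues overlapped E4.5-Post. The log2 fold change against E4.5-Post was 1.01 ± 0.12 (adjusted p = 2.75e-05) in E4.5-Ant, 1.12 ± 0.11 (adjusted p = 1.35e-06) in the E5.5 duct and 1.11 ± 0.11 (adjusted p = 9.92e-07) in the E6.5 duct. The ducts differed from E4.5-Ant by 0.11 ± 0.12 (adjusted p = 0.538) at E5.5 and 0.10 ± 0.12 (adjusted p = 0.535) at E6.5.

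GLI3 (gene4063, chr2:50696713-50908081, minus strand), the main repressor, showed no such step. Its level was 60.7, 61.4 and 70.1 TMM CPM in E4.5-Post, 64.4 and 71.0 in E4.5-Ant, 71.4, 98.0 and 70.2 in the E5.5 ducts and 63.2, 60.7 and 66.4 in the E6.5 ducts. The E5.5 values lay above those of E4.5-Post by 0.33 ± 0.11 on the log2 scale (adjusted p = 0.0159), under the fold limit, and library 2 of the E5.5 duct was the highest for both GLI2 and GLI3. The E6.5 duct differed from E4.5-Post by 0.01 ± 0.11 (adjusted p = 0.939).

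The ratio of GLI2 to GLI3 counts within a library does not depend on scaling. It was 0.511, 0.489 and 0.492 in E4.5-Post, 0.974 and 0.905 in E4.5-Ant, 0.851, 0.867 and 0.848 in the E5.5 ducts and 1.08, 1.07 and 1.04 in the E6.5 ducts. The 4 tissues did not overlap in this ratio over the 11 libraries of the test. The left-out E4.5-Ant library was at 1.40, above every E6.5 duct. Over all 92400 assignments of the 11 libraries to tissues, an exact permutation test of the spread between tissues gave p = 6.49e-05, the smallest it could give (adjusted over the 2 ratios computed, p = 0.00013). The ratio uses the counts from which GLI2 was already called, so this p is no separate support for that difference. The order of the tissues over these 11 libraries was E4.5-Post, E5.5 duct, E4.5-Ant and E6.5 duct. The ratio says nothing of which transcript is the more abundant, since counts also depend on gene length.

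Library 2 of the E5.5 duct was 1 of several libraries in which the deviation of a gene from the mean of its tissue's other libraries went with gene length. The Spearman correlation across 11692 genes, which are not independent replicates, was 0.50 in that library and -0.50 in library 1 of the same tissue. It was 0.41 in library 1 and -0.58 in library 2 of the E6.5 duct. The values within a tissue are not independent, since each library is set against the others. GLI2 and GLI3 are 183397 and 211369 bases long. Their levels in library 2 against library 1 of the E5.5 duct were 85.0 against 60.7 TMM CPM and 98.0 against 71.4 TMM CPM, but the ratio of GLI2 to GLI3 was 0.867 against 0.851. With a correction for gene length in each library, chosen after seeing the data, GLI2 exceeded E4.5-Post by 0.89 on the log2 scale in E4.5-Ant (adjusted p = 3.28e-06) and by 0.87 in the E5.5 duct (adjusted p = 5.75e-07). The part of gene length in the GLI2 values was not tested.

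**Figure D3:**
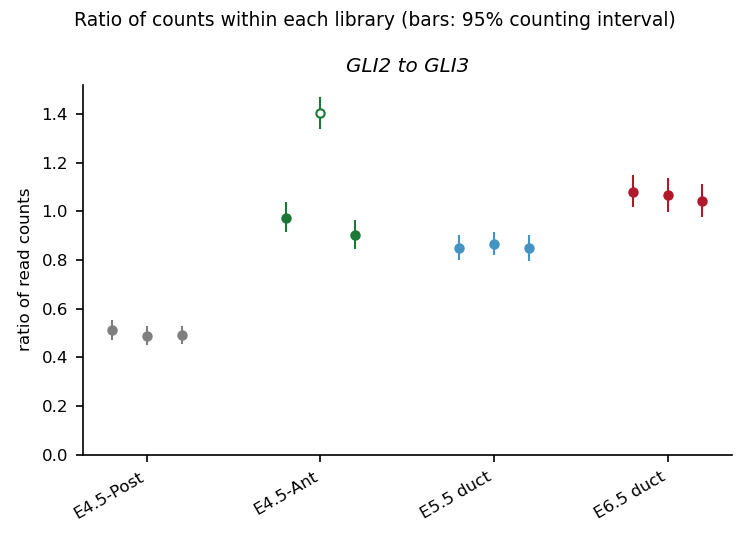
Ratio of GLI2 to GLI3 read counts within each library, by tissue, on a linear axis from 0. Bars are 95% intervals of counting error and the open point is the left-out E4.5-Ant library, at 1.40. The ratio is between 0.489 and 0.511 in E4.5-Post and at 0.848 or above in every library of the other tissues.

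HHIP (gene7774, chr4:30847842-30925059, plus strand), which binds Hedgehog ligands and takes them away from PTCH1, separated the ducts from both E4.5 tissues. Its level was 18.8, 15.6 and 13.4 TMM CPM in E4.5-Post, 20.7 and 21.4 in E4.5-Ant, 33.0, 36.6 and 41.2 in the E5.5 ducts and 42.6, 40.2 and 50.5 in the E6.5 ducts. Every duct library was above every E4.5 library, and the ducts overlapped each other. Against E4.5-Post the log2 fold change was 0.42 ± 0.14 (adjusted p = 0.0325) in E4.5-Ant, under the fold limit, then 1.23 ± 0.12 (adjusted p = 1.18e-06) in the E5.5 duct and 1.504 ± 0.12 (adjusted p = 9.72e-08) in the E6.5 duct. Against E4.5-Ant it was 0.81 ± 0.13 (adjusted p = 0.000349) at E5.5 and 1.09 ± 0.13 (adjusted p = 1.53e-05) at E6.5.

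BOC (gene1546, chr1:84397709-84443638, minus strand) is a cell surface co-receptor that helps PTCH1 bind its ligand. It was at 88.6, 75.4 and 86.5 TMM CPM in E4.5-Post and at 164 and 157 in E4.5-Ant. In the ducts it was at 228, 245 and 203 TMM CPM at E5.5 and 222, 209 and 212 at E6.5. E4.5-Ant lay between the control and the ducts without overlap with either, and the ducts overlapped. The log2 fold change against E4.5-Post was 0.96 ± 0.08 (adjusted p = 7.34e-07) in E4.5-Ant, 1.45 ± 0.07 (adjusted p = 3.27e-09) in the E5.5 duct and 1.38 ± 0.07 (adjusted p = 1.54e-09) in the E6.5 duct. The step from E4.5-Ant to the E5.5 duct was 0.49 ± 0.08 (adjusted p = 0.000323), under the fold limit.

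GAS1 (gene23162, chrZ:41071841-41077116, minus strand), a membrane-anchored co-receptor, was at 32.3, 34.5 and 36.5 TMM CPM in E4.5-Post and 36.1 and 40.5 in E4.5-Ant. It was at 39.2, 41.0 and 46.8 TMM CPM in the E5.5 ducts and 46.5, 53.1 and 52.9 in the E6.5 ducts. Each tissue overlapped the next in this order, while both ducts lay above every E4.5-Post library. The E6.5 duct was higher than E4.5-Post by 0.58 ± 0.08 on the log2 scale (adjusted p = 2.58e-05), a value of 0.5849 that fell just short of the fold limit. It passed that limit in 4 of the 11 fits that each left out 1 library.

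Further pathway genes were read from lists. CDON, the paralogue of BOC, was at 45.6 to 47.4 TMM CPM in E4.5-Post, 62.9 and 66.4 in E4.5-Ant, 81.3 to 84.9 in the E5.5 ducts and 92.7 to 101 in the E6.5 ducts, with no overlap between tissues. Its log2 fold change against E4.5-Post was 0.84 ± 0.05 (adjusted p = 1.11e-08) at E5.5 and 1.07 ± 0.05 (adjusted p = 5.37e-10) at E6.5. LRP2, an endocytic receptor that binds SHH in other tissues and also belongs to the nephron markers, had log2 fold changes against E4.5-Post of -0.63 ± 0.14 (adjusted p = 0.00171) at E5.5 and -1.34 ± 0.14 (adjusted p = 1.87e-06) at E6.5. The 7 measured nephron markers, LRP2 included, summed to 2202 to 2688 TMM CPM in E4.5-Post, 1952 to 2218 in E4.5-Ant, 1402 to 1579 in the E5.5 ducts and 1050 to 1437 in the E6.5 ducts, and none was at 0 throughout a tissue. The part of kidney tissue in these values was not tested.

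DHH, the Desert hedgehog ligand, was at 29.9, 29.98 and 22.1 TMM CPM in E4.5-Post and 18.0 and 16.8 in E4.5-Ant. It was lower in E4.5-Ant, with a log2 fold change of -0.64 ± 0.12 (adjusted p = 0.00149). In the ducts it was at 20.9, 20.7 and 19.7 TMM CPM at E5.5 and 16.8, 20.5 and 18.3 at E6.5, below E4.5-Post by -0.40 ± 0.11 (adjusted p = 0.00558) and -0.54 ± 0.11 (adjusted p = 0.000683), both under the fold limit. GPC3, a glypican that competes with PTCH1 for ligand in the mouse, exceeded its E4.5-Post level in E4.5-Ant by 2.001 ± 0.13 on the log2 scale (adjusted p = 6.06e-08). It was lower in the E6.5 duct than in E4.5-Ant, with a log2 fold change of -2.11 ± 0.13 (adjusted p = 1.8e-08).

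**Figure D4:**
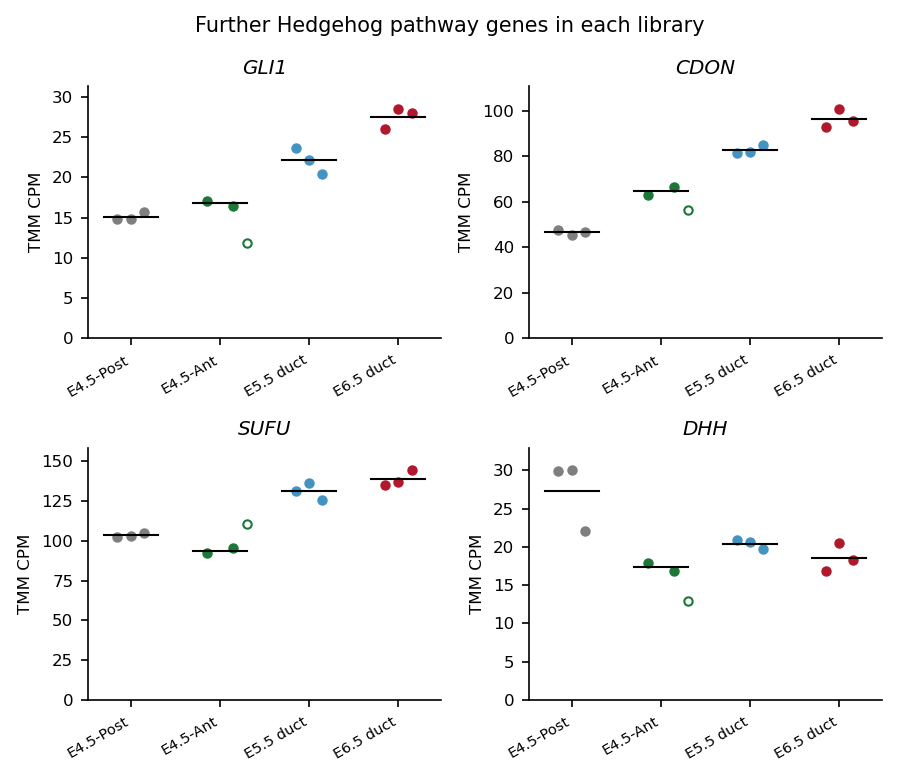
TMM CPM of GLI1, CDON, SUFU and DHH in every library, by tissue, with a linear axis from 0 in each panel. Filled points are the libraries of the test, black lines their mean and the open green point the left-out E4.5-Ant library. GLI1, CDON and SUFU are highest in the E6.5 ducts by their mean, and DHH is highest in E4.5-Post.

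Of 17 measured genes of cytoplasmic transduction, GLI1 alone was called, in the E6.5 duct against E4.5-Post, where 25.3% of all tested genes were called, and against E4.5-Ant, where 19.7% were. GLI1, an activator whose transcription is a common readout of the pathway, was at 14.8, 14.8 and 15.7 TMM CPM in E4.5-Post, 17.1 and 16.4 in E4.5-Ant, 23.6, 22.2 and 20.4 in the E5.5 ducts and 25.9, 28.5 and 27.9 in the E6.5 ducts. The tissues did not overlap. Its log2 fold change against E4.5-Post was 0.17 ± 0.08 (adjusted p = 0.163) in E4.5-Ant, 0.56 ± 0.07 (adjusted p = 2.12e-05) in the E5.5 duct, just under the fold limit, and 0.89 ± 0.07 (adjusted p = 1.78e-07) in the E6.5 duct. SUFU, a negative regulator that holds GLI proteins in the cytoplasm, was at 102 to 105 TMM CPM in E4.5-Post and 135 to 144 in the E6.5 ducts, a log2 fold change of 0.45 ± 0.05 (adjusted p = 1.54e-06) under the fold limit. The median of the 17 genes was between -0.03 and 0.11 over the 6 comparisons.

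All 24 measured genes of the primary cilium, from a list of 27 names, were tested. A single call was made over the 6 comparisons, in each of which between 7.56% and 25.3% of all tested genes were called. RPGRIP1L, a protein of the ciliary transition zone, was lower in the E6.5 duct than in E4.5-Post, with a log2 fold change of -0.64 ± 0.08 (adjusted p = 1.01e-05). The list's median log2 fold change was between -0.06 and 0.10.

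Among 8 genes for ligand processing and release, the 3 SCUBE genes, whose secreted products help release lipid-bearing ligand, differed between tissues and not all in the same direction. Against E4.5-Post, 1 of the 8 was called higher in E4.5-Ant, and 2 were called higher and 1 lower in each duct. Over all tested genes, 10.8% were called in E4.5-Ant, 20.6% in the E5.5 duct and 25.3% in the E6.5 duct. SCUBE2 rose against E4.5-Post by 1.18 ± 0.08 (adjusted p = 2.51e-08) at E5.5 and 0.63 ± 0.08 (adjusted p = 7.54e-06) at E6.5, on the log2 scale. SCUBE3 rose by 1.02 ± 0.10 (adjusted p = 2.51e-06) in E4.5-Ant, 0.77 ± 0.09 (adjusted p = 5.23e-06) at E5.5 and 0.86 ± 0.09 (adjusted p = 1.24e-06) at E6.5. SCUBE1 fell, with a log2 fold change of -1.001 ± 0.11 (adjusted p = 2.53e-06) at E5.5 and -1.44 ± 0.11 (adjusted p = 5.06e-08) at E6.5. DISP2 was lower in the E6.5 than in the E5.5 duct (log2 fold change -1.90 ± 0.60, adjusted p = 0.0307) at levels under 1 TMM CPM, and HHAT, which attaches palmitate to the ligand, its relative HHATL, DISP1, which exports the ligand, and DISP3 were not called.

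A list of 20 mesenchymal genes known to respond to Hedgehog in other tissues moved in both directions. Against E4.5-Post, 7 were called higher and 1 lower in E4.5-Ant, 5 higher and 4 lower in the E5.5 duct, and 4 higher and 6 lower in the E6.5 duct, with a median log2 fold change of 0.33, 0.03 and -0.27. Over all tested genes, the shares called higher and called lower were 7.70% and 3.05% in E4.5-Ant, 14.3% and 6.26% in the E5.5 duct and 16.5% and 8.78% in the E6.5 duct. FOXF1, a forkhead factor of gut mesenchyme, rose by 3.04 ± 0.49 (adjusted p = 0.00037) in E4.5-Ant, 1.71 ± 0.51 (adjusted p = 0.0107) at E5.5 and 2.52 ± 0.47 (adjusted p = 0.000385) at E6.5. It was at 0.213 to 0.819 TMM CPM in E4.5-Post and 2.94 and 4.40 in E4.5-Ant. In the ducts it was at 0.850 to 2.51 TMM CPM at E5.5 and 1.86 to 3.33 at E6.5. FOXF1 was called lower in the E5.5 duct than in E4.5-Ant. OSR1, an odd-skipped factor of intermediate mesoderm, rose by 1.02 ± 0.10 (adjusted p = 1.15e-06) at E5.5 and 1.74 ± 0.10 (adjusted p = 3.28e-09) at E6.5.

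The 3 genes of this list that changed most were PAX1, PAX9 and NKX3-2, transcription factors of the sclerotome. In the E6.5 duct PAX1 was lower than in E4.5-Ant by a log2 fold change of -5.47 ± 0.57 (adjusted p = 3.3e-06), PAX9 by -4.40 ± 0.51 (adjusted p = 8.47e-06) and NKX3-2 by -4.31 ± 0.67 (adjusted p = 0.000129). PAX1 was at 17.4 and 19.1 TMM CPM in E4.5-Ant, 19.0, 18.4 and 5.33 in the E5.5 ducts and 0.672, 0.176 and 0.341 in the E6.5 ducts, and its low E5.5 value was in library 3, where SHH was highest. All 3 also belong to the sclerotome and cartilage markers given beside IHH, and the part of sclerotome in the list's values was not tested.

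As a check of the labelled tissue, the 9 markers of Müllerian duct epithelium and mesenchyme summed to 808 to 839 TMM CPM in E4.5-Post, 977 to 1004 in E4.5-Ant, 1180 to 1326 in the E5.5 ducts and 1804 to 1844 in the E6.5 ducts. Against E4.5-Post, 3 of the 9 were called higher and 4 lower in E4.5-Ant (LHX1, PAX2, WNT4 and DMRT1), with a median log2 fold change of -0.38, and POSTN, which made up most of the higher sum, was at 505 to 564 TMM CPM there against 177 to 203. In the ducts 6 were called higher at E5.5 and 7 at E6.5, and LHX1 was lower in both. Of all tested genes, 7.70% were called higher and 3.05% lower in E4.5-Ant, 14.3% and 6.26% at E5.5 and 16.5% and 8.78% at E6.5. WNT7A, a defining gene of duct epithelium, was at 0.341 to 0.500 TMM CPM in E4.5-Post and 7.81 to 10.3 in the E6.5 ducts. The 5 measured markers of the Wolffian duct, which runs beside the Müllerian duct, summed to 288 to 310 TMM CPM in E4.5-Post, 229 to 239 in E4.5-Ant, 390 to 396 in the E5.5 ducts and 385 to 408 in the E6.5 ducts, so that the dissected ducts also held transcripts of that list. The list is not specific, since the study names EMX2 among genes of Müllerian duct elongation or differentiation. EMX2 was at 106 to 113 TMM CPM in E4.5-Post, 132 to 150 in the E5.5 ducts and 160 to 180 in the E6.5 ducts. WNT9B, which the study derives from the Wolffian duct, was at 83.3 to 93.9, 127 to 141 and 97.1 to 120 in these tissues. RET was at 11.1 to 13.8, 25.4 to 35.8 and 16.5 to 20.1. Against E4.5-Post, RET and WNT9B were called higher at E5.5 and RET and EMX2 at E6.5, and none was called lower. GFRA1 was at 37.7 to 45.2 TMM CPM at E5.5, against 48.7 to 61.6 in E4.5-Post. The part of the Wolffian duct in the Hedgehog values was not tested.

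Genes whose pattern over the 11 libraries was among the most like that of each called member were found by Pearson correlation of log2 TMM CPM, given as a description, since the libraries of a tissue share its level. For GLI2 they were ADAM12 (r = 0.982) and FBN3 (r = 0.981), and for BOC ADGRD1 (r = 0.991), MAP1A (r = 0.989) and CRYBA4 (r = 0.988). For SHH they were KRT7 (r = 0.953), an epithelial keratin, LOC107052968 (r = 0.941) and AK7 (r = 0.938), with lower values than those of the other members. For IHH they were TNFRSF14 (r = 0.988), GLIS2 (r = 0.983) and LOC107050199 (r = 0.983), and for HHIP LOC100859276 (r = 0.990), FGB (r = 0.990) and CYP4B7 (r = 0.984). Among the members themselves, GLI2 and BOC had r = 0.956 and IHH and GAS1 r = 0.917.

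The left-out E4.5-Ant library differed from the other 2 in a way that went with gene length. Across 11692 genes, the Spearman correlation of its log2 difference with gene length was 0.66, and the median log2 difference was -0.22 for 3715 genes of up to 10 kb, -0.04 for 5342 genes of 10 to 50 kb, 0.22 for 1430 genes of 50 to 100 kb and 0.63 for 1205 genes over 100 kb. GLI2 and GLI3, the longest members, were 3.91 and 2.61 times the mean of the other libraries. SHH, of 9625 bases, was at 0.429 times that mean with 29 counts, and SMO, of 8526 bases, at 0.818 times.

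**Figure D5:**
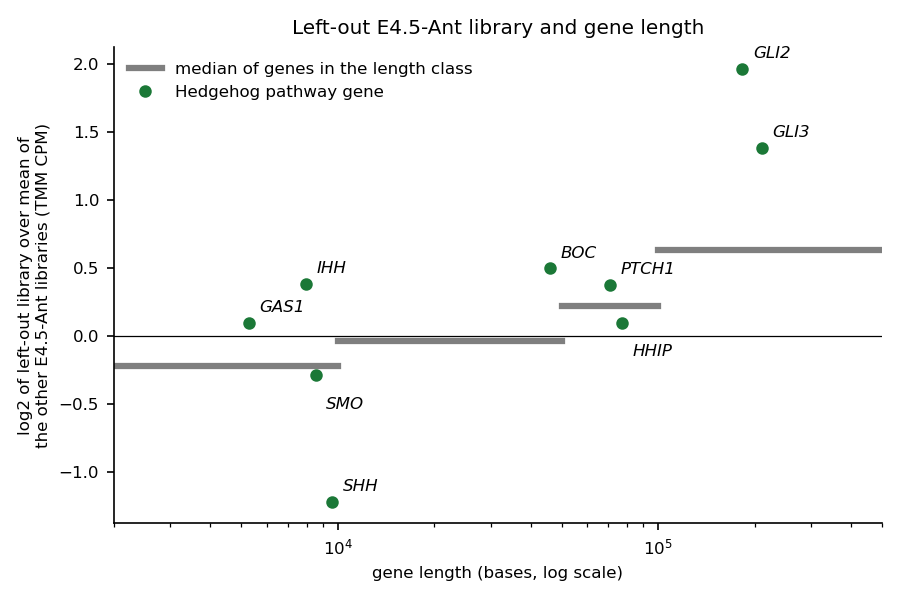
Log2 ratio of the left-out E4.5-Ant library to the mean of the other 2, from TMM CPM, against gene length in bases on a log axis, for the 9 genes (green points). Grey lines are the median of all genes in the length classes up to 10 kb, 10 to 50 kb, 50 to 100 kb and over 100 kb, and the outer classes are drawn to the edges of the plot. The medians climb from -0.22 to 0.63, and GLI2 and GLI3 lie above the median of the longest class.

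With that library included, the log2 fold change of GLI2 in E4.5-Ant against E4.5-Post was 1.97 (adjusted p = 0.00494) in place of 1.01, and that of the E5.5 duct was 1.103 (adjusted p = 0.0506). GLI2 then lay lower in the ducts than in E4.5-Ant, with log2 fold changes of -0.86 (adjusted p = 0.153) and -0.88 (adjusted p = 0.102), neither called. SHH lost its call in the E5.5 duct against E4.5-Post, with a log2 fold change of 0.96 (adjusted p = 0.0581). BOC was still called in E4.5-Ant with a log2 fold change of 1.13 (adjusted p = 6.14e-05).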

How the data were processed

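Per the labels and the methods of the study, the authors sequenced stranded mRNA libraries in a single lane, aligned reads with STAR through RNAsik and counted them with featureCounts 1.6.2 over whole genes on the gene's strand. The authors deposited whole-number counts per gene, not normalized, for 24121 genes. Columns number the libraries of a tissue from 1 to 3 without tying them to samples, and the cell type given for 1 of the samples titled E5.5 duct is posterior kidney. Gene starts, ends and lengths are the other deposited values used, on GRCg6a, and chromosome names were matched by symbol to a RefSeq table of GRCg7b, with 18429 symbols matched once.

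Counts were tested in edgeR 4.0.16 (R 4.3.3) with a quasi-likelihood model of 11 libraries in 4 tissues, TMM scaling, filterByExpr and Benjamini-Hochberg adjustment over 16603 genes. An E4.5-Ant library with over 10% of counts on rRNA genes was left out, as the study used 2 libraries of that tissue. Alternatives used limma 3.58.1, DESeq2 1.42.0, other scalings and filters, and single libraries left out. Standard errors (SE) were derived as the absolute log2 fold change divided by the square root of edgeR's F statistic. The test was tried on simulated data. Ratios within libraries were tested by exact permutation.

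The 9 genes and the gene lists were chosen with earlier results of these data known. Named genes are all 9 members, GLI1, DHH, SUFU and CDON, and up to 3 genes per list that were called with the largest absolute log2 fold change; other names were added after their values were seen. Correlations used log2(TMM CPM + 1). Some genes named by these rules, and 1 of the 2 ratios, are not reported here.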

Additional observations from a re-analysis of the deposited data

Results flagged for a closer look

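The E4.5-Ant library left out of the tests held values above the highest E4.5-Post library for 7 of the 9 genes. The share of all genes that did so was not computed, so this count cannot be read as particular to the 9 genes. For GLI2, HHIP and BOC, both other E4.5-Ant libraries also lay above every E4.5-Post library. In TMM CPM, IHH was at 0.346 in the left-out library against 0.341 (from 6 counts against 10), PTCH1 at 157 against 128, GLI2 at 248 against 34.5 and GLI3 at 177 against 70.1. HHIP was at 22.5 against 18.8, BOC at 227 against 88.6 and GAS1 at 40.9 against 36.5. The library's differences from the other E4.5-Ant libraries went with gene length, as given above, and the part of its rRNA content in these values was not tested. No tissue had the 4 libraries that a search for single outlying libraries needs.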

How the results depend on the processing

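Of the counts of called members, those of E4.5-Ant and of the E6.5 duct over E4.5-Post, and of the E6.5 duct over E4.5-Ant, stayed within 1.5 times under every alternative. For the E5.5 duct against E4.5-Ant the count was 1 (HHIP) in place of 2 with limma voom, with the DESeq2 Wald test and with the 2 compared tissues alone, where SHH had log2 fold changes of 1.04, 1.01 and 1.03 with adjusted p of 0.0549, 0.0883 and 0.104. For the E6.5 against the E5.5 duct it was 0 where at least 10 counts were required in every library, since IHH was then not tested. For the E5.5 duct against E4.5-Post it was 3 (IHH, HHIP and BOC) in place of 5 with all 12 libraries, which share 1 spread estimate with the left-out library. Leaving out each library in turn, the counts ran over 2 to 2 (E4.5-Ant over E4.5-Post), 4 to 5 and 5 to 6 (E5.5 and E6.5 ducts against E4.5-Post), 1 to 2 and 2 to 3 (E5.5 and E6.5 ducts against E4.5-Ant) and 1 to 2 (E6.5 against E5.5 duct). An arm with a single remaining library was assumed to vary like the other tissues.

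No called value changed sign. The values that did were not called and are given as log2 fold changes, and the cause was not tested. Not all of them were near 0. With limma voom, GLI2 was at 0.0092 for E6.5 against E5.5 duct. With library size alone, PTCH1 was at 0.018 in E4.5-Ant and GLI3 at -0.00030 in the E6.5 duct, relative to E4.5-Post, and with the 2 compared tissues alone PTCH1 in E4.5-Ant was at 0.012. With all 12 libraries, PTCH1 was at 0.11 for E4.5-Ant and GLI3 at -0.013 for the E6.5 duct against E4.5-Post. For the E5.5 duct against E4.5-Ant they gave PTCH1 -0.041, SMO 0.050, GLI2 -0.86 and GLI3 -0.38, and for the E6.5 duct against E4.5-Ant GLI2 -0.88. With the gene length correction, chosen after seeing the data, GLI3 was at -0.045 in E4.5-Ant and -0.080 in the E6.5 duct and PTCH1 at -0.011 in the E5.5 duct, all against E4.5-Post. It also gave SMO 0.0088 and GLI2 -0.021 for the E5.5 duct against E4.5-Ant, and GLI2 0.17 and BOC 0.028 for the E6.5 against the E5.5 duct.

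Leaving out single libraries, the values that changed sign ran from -0.76 to 0.44 (SHH) and -0.069 to 0.042 (PTCH1) for E4.5-Ant and from -0.028 to 0.081 (GLI3) for the E6.5 duct relative to E4.5-Post, from -0.10 to 0.023 (SMO) and -0.076 to 0.20 (GLI2) for the E5.5 duct against E4.5-Ant, and from -0.10 to 0.17 (GLI2) and -0.13 to 9.8e-05 (BOC) for the E6.5 against the E5.5 duct. GAS1 passed the fold limit for the E6.5 duct against E4.5-Post with at least 10 counts in every library (0.60), the gene length correction (0.61), the 2 tissues alone (0.5856) and the protein coding table alone (0.60). Equal column numbers of the E4.5 tissues correlated at 0.19, -0.19 and -0.24. With so few libraries, the left-out one among them, these values cannot show whether equal numbers share embryos. No label ties the numbers to each other, so they were not read as pairs. A replicate block changed none of the 9 calls between the E4.5 tissues.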
